A study of Mus musculus with 6 samples.

Results

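The cathepsins and cystatin C described here are 10 genes, namely Ctsb, Ctsc, Ctsh, Ctsk, Ctsl, Ctss, Ctsz, Ctsd, Ctsa and Cst3, of the 15168 genes in the count table. They were chosen by their gene symbols, with the aged against young differences of these same 6 samples already known. The differences between the age groups are therefore given for these 10 genes as a description, with no test.

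The samples were macrophages sorted from full-thickness wounds in the dorsal skin of female wild-type C57BL/6J mice on Day 3 after wounding, and their RNA was sequenced in bulk to ask how age alters these cells. By the labels, the young mice were 12 weeks old and the aged mice 24 months old, with no treatment other than wounding named for either group. Each group held 3 samples, lettered A, B and C, with total estimated counts of 16263373, 15642483 and 15282178 in young and 15270103, 15998054 and 17927483 in aged samples. The sort kept cells positive for CD45, CD11b, CD64 and F4/80 and had no step against Ly6G. The sources used here do not say whether each sample was 1 mouse or a pool, so the p-values measure only the spread between these samples, which may be partly technical.

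Cathepsins are proteases of the lysosome, made as inactive proenzymes, sorted by mannose 6-phosphate receptors and activated in acidic compartments. Macrophages use them to digest engulfed material, to process antigen and, when the enzymes are secreted, to degrade extracellular matrix. Cystatins are small proteins that block the active site of papain-like cysteine cathepsins, and cystatin C, the product of Cst3, is a secreted form.

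The genes of the sort were counted in every sample. Ptprc, which encodes CD45, averaged 210 CPM in young samples and 251 CPM in aged ones, where CPM is the count scaled to library size with TMM factors. Fcgr1, which encodes CD64, averaged 450 CPM in the young group and 499.8 CPM in the aged group. Itgam, which encodes CD11b, was higher in aged samples (376 against 750 CPM, edgeR adjusted p = 0.00735), and Adgre1, which encodes F4/80, was lower (329 against 204 CPM, edgeR adjusted p = 0.0292). Genes were called at an adjusted p under 0.05, and calls were repeated under 11 alternatives, namely DESeq2, its size factors, 2 other filters on low counts, a block for the replicate letter and leaving out each sample in turn. Over all genes tested, edgeR called 9.73% higher and 7.97% lower in aged samples. The Adgre1 call was lost in 4 of 11 alternatives, without young B, without young C, without aged A and without aged C, with an adjusted p of up to 0.113.

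Some libraries stood apart by markers of other cells. Keratinocyte genes were concentrated in aged B, where 8 of 9 markers summed to 174 CPM against 2.24 CPM or less in each other sample. Krt14, a defining basal keratinocyte gene and the most abundant of them, had 1259 counts in aged B and 14 or fewer elsewhere, and Krt1 was at 0 in the young samples and in aged A. Krt14 was called higher by edgeR (log2 fold change 8.29, adjusted p = 0.0259), had no adjusted p from DESeq2 and lost the call without young B or young C (adjusted p of up to 0.111). Without aged B its log2 fold change was 3.25, with an edgeR adjusted p = 0.0484. Keratinocytes lack CD45, so the sort would remove them. Mast cells and basophils would be removed by the selection for CD64 and F4/80. Their markers, 6 of 7, had low sums in aged B and aged C, with 96.2, 47.2 and 26.5 CPM in young samples and 67.2, 1.02 and 0.741 CPM in aged ones. Tpsb2 was the most abundant of them per length, Kit averaged 0.681 and 1.28 CPM, and Cpa3, Cma1 and Mcpt4 were at 0 in aged B and aged C. The part of these cells in the differences of the cathepsins was not tested.

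Together the 10 genes took 3.19%, 3.29% and 3.66% of all counts in young A, B and C and 2.13%, 2.65% and 2.26% in aged A, B and C. Every aged sample was below every young sample. The TMM factors were 1.11, 1.09 and 0.991 in young and 0.936, 0.983 and 0.904 in aged samples, and after this scaling their summed level averaged 31938.5 ± 4416 CPM in young samples and 24933 ± 2095 CPM in aged ones (SD, n = 3 each). Of the 10 genes, 9 had a log2 fold change below 0 and 1 above, with TMM and with DESeq2 size factors alike, and with a median of -0.27 beside -0.02 over all 11878 genes tested. In 4 genes, Ctsb, Ctsk, Ctss and Cst3, the aged samples lay below all young samples, and in 0 they lay above. Over all genes tested, 19% did not overlap with aged lower and 19.2% did not overlap with aged higher, and nothing is read from the count because these values chose the genes. In bulk RNA, fewer cells of a type and less RNA per cell cannot be told apart.

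**Figure D1:**
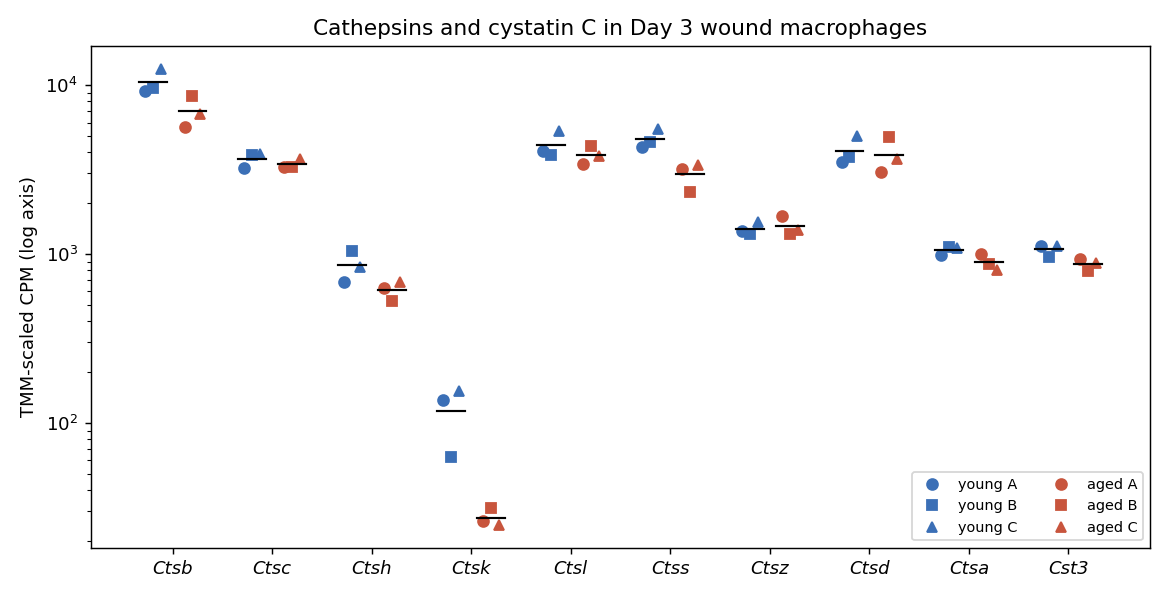
Level of each gene in TMM-scaled CPM (log axis), with 1 point per sample and a bar at the mean of each group of 3. The aged samples of Ctsk, at 25 to 31.5 CPM, sit below the young samples, which span 62.5 to 154 CPM, and those of Ctsz overlap the young samples.

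Among the cysteine cathepsins, Ctsk, which encodes a collagen-degrading enzyme best known from osteoclasts, had the log2 fold change farthest from 0 of the 10 genes. It lies at chr3:95499256-95509362 on the plus strand of GRCm38. Its level was 137, 62.5 and 154 CPM in young A, B and C and 26.2, 31.5 and 25 CPM in aged A, B and C. Young B was well below the other young samples, yet the groups did not overlap, and the 3 aged samples were close together. The log2 fold change was -2.10 with a standard error of 0.30, and the young mean was 4.28 times the aged mean. As counts, Ctsk had 1066 to 2482 in young and 374 to 495 in aged samples. It made up 0.479%, 0.207% and 0.416% of the counts of the 10 genes in young and 0.115%, 0.117% and 0.0999% in aged samples.

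Ctsk is also made by fibroblasts, which lack CD45 and which the sort would remove, and their markers are set beside it. Of 11 listed genes 10 were in the table and 7 were counted in every sample, with Dcn the most abundant per length. Their summed level was 29.6, 27.5 and 44.4 CPM in the young samples, then 13.5, 129.9 and 39.8 CPM in the aged ones, and 0 of the 7 tested genes were called by edgeR at an adjusted p under 0.05, with 0 at an unadjusted p under 0.05 and 0 called by DESeq2. Pdgfra, a defining fibroblast gene, had 6, 0 and 2 counts in young and 1, 15 and 2 counts in aged samples. Aged B had the highest summed fibroblast level, and its Ctsk level, 31.5 CPM, was the highest of the aged samples but below every young sample. Among the young samples the fibroblast sums and Ctsk ran in the same order, while aged A and aged C were in opposite order. The part of fibroblast RNA in the Ctsk difference was not tested.

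Of a list of 14 osteoclast genes, which are expressed with Ctsk in those cells, 12 were tested. Acp5, which encodes tartrate-resistant acid phosphatase and was the most abundant of the list per length, fell from 281 to 127 CPM (log2 fold change -1.15 ± 0.19 SE, edgeR adjusted p = 0.00656), and this call held in 11 of 11 alternatives. Atp6v0d2, a proton pump subunit, fell from 30.5 to 11.6 CPM (log2 fold change -1.39 ± 0.37 SE, edgeR adjusted p = 0.0315) and lost the call in 5 of 11 alternatives, each of them leaving out 1 sample (young A, young C or any aged sample), with an adjusted p of up to 0.127. Its groups overlapped, since young B was at 12.7 CPM and aged C at 14.3 CPM. The other 10 were not called, with a median log2 fold change of -0.20 over the 12.

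Ctss, encoding a cathepsin that stays active at neutral pH and trims the invariant chain of MHC class II, is the downstream neighbour of Ctsk at chr3:95526786-95556403, plus strand. The genes are 17423 bases apart in the GENCODE annotation, with 0 annotated genes between them. Ctss was at 4292, 4591 and 5497 CPM in young samples and 3185, 2339 and 3356 CPM in aged ones. The groups did not overlap, and aged B was the lowest sample. Aged against young, the log2 fold change was -0.70 with a standard error of 0.21. Ctss took 14.97%, 15.2% and 14.9% of the counts of the 10 genes in young samples and 13.96%, 8.66% and 13.4% in aged ones, so that its share was lowest in aged B.

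Of 10 genes of MHC class II loading and its control, edgeR called 0, with 1 at an unadjusted p under 0.05 and 0 called by DESeq2. Cd74, the invariant chain and the most abundant of them, was at 13260, 5963 and 6213 CPM in young samples and 8345, 4750 and 8905 CPM in aged ones, so that young A stood apart and the groups overlapped.

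Ctsb encodes a cathepsin with both endopeptidase and exopeptidase activity and lies at chr14:63122462-63145923, plus strand. It was at 9264, 9616 and 12482.5 CPM in young samples and 5616, 8612 and 6764 CPM in aged ones. The groups did not overlap, aged B came nearest to the young samples and aged A was the lowest. The log2 fold change was -0.58 with a standard error of 0.23. Ctsb made up 32.3%, 31.9% and 33.8% of the counts of the 10 genes in young samples and 24.6%, 31.9% and 27.1% in aged samples.

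Ctsl, a broad endopeptidase at chr13:64359337-64370890 on the minus strand, was at 4087, 3870 and 5369 CPM in young samples and 3417, 4363 and 3782 CPM in aged ones. Aged B lay above 2 of the 3 young samples, so the groups overlapped, and the log2 fold change was -0.20 with a standard error of 0.20. Young C had the highest level of Ctsb, Ctsl and Ctsd among the young samples, and aged B the highest among the aged samples. Across the 6 samples, the log2 CPM of Ctsb and Ctsl had a Pearson r of 0.88 and those of Ctsd and Ctsl one of 0.88 (n = 6), as a description of libraries that share 1 scaling. Among all pairs of the 10 genes the highest was Ctss and Cst3, at 0.887, Ctsk and Cst3 were at 0.877, and the lowest was Ctsd and Ctsz, at -0.343. These correlations include the difference between the age groups, and in Ctss, Ctsk and Cst3 every aged sample lay below every young one.

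Ctsc, which encodes the dipeptidyl peptidase that activates granule serine proteases, lies at chr7:88278085-88310888 on the plus strand. Its level was 3234, 3850 and 3901 CPM in young samples and 3276, 3259 and 3641 CPM in aged ones. The aged samples lay within the range of the young ones, and the log2 fold change was -0.11 with a standard error of 0.18. Of a list of 10 granule proteases set beside Ctsc, 9 were in the table and 5 were tested. Prtn3, proteinase 3, rose from 4.15 to 8.48 CPM (log2 fold change 1.03 ± 0.32 SE, edgeR adjusted p = 0.0476) and lost the call in 7 of 11 alternatives, namely with no filter, with the replicate block and without any 1 sample other than aged B, with an adjusted p of up to 0.1698. Tpsb2, a mast cell tryptase and the most abundant of the list per length, had 461, 190 and 89 counts in young samples and 292, 4 and 1 in aged A, B and C.

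Ctsh encodes an aminopeptidase and lies at chr9:90054152-90076089, plus strand. It was at 684, 1047 and 843 CPM in young samples and 627, 526 and 685 CPM in aged ones. The groups met where aged C, at 684.8 CPM, lay just above young A, at 683.96 CPM, and young B was the highest sample. Aged against young, the log2 fold change was -0.49 with a standard error of 0.20.

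Ctsz, a carboxypeptidase gene at chr2:174427493-174439039 on the minus strand, was the 1 gene of the 10 with a log2 fold change above 0. It was at 1371, 1320 and 1542 CPM in young samples and 1683, 1309 and 1395 CPM in aged ones. The groups overlapped, with aged A the highest sample and aged B the lowest. The log2 fold change of 0.05 was smaller than its standard error of 0.18, and it turned to -0.06 when aged A was left out.

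Ctsd encodes the aspartic protease of the set and lies at chr7:142375911-142388038, minus strand. Its level was 3485, 3770 and 4968 CPM in young samples and 3045, 4894 and 3653 CPM in aged ones. Young C and aged B were the high samples of their groups and the groups overlapped. The log2 fold change of -0.08 was smaller than its standard error of 0.23, and its sign changed without young C (0.09) and without aged A (0.07).

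Ctsa encodes a serine carboxypeptidase that also stabilises the neuraminidase Neu1 and the beta-galactosidase Glb1 in a complex, and it lies at chr2:164832873-164841032, plus strand. Ctsa was at 991, 1098 and 1092 CPM in young samples and 1002, 874 and 803 CPM in aged ones. Aged A lay above young A and the other 2 aged samples lay below all young samples. Aged against young, the log2 fold change was -0.25 with a standard error of 0.17. Neu1 averaged 159.9 and 158 CPM and Glb1 35.2 and 30.1 CPM in young and aged samples. Both were singled out after their values were seen, and neither was called.

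Cst3, encoding cystatin C, lies at chr2:148871722-148875692 on the minus strand. It was at 1122, 959.9 and 1113 CPM in young samples and 932, 790.4 and 887 CPM in aged ones. The groups did not overlap, but the gap between young B and aged A was narrow. Aged against young, the log2 fold change was -0.29 with a standard error of 0.17. Per length of transcript, Cst3 stood at 13.1%, 10.6% and 10.2% of the summed cysteine cathepsins in young and 13.3%, 11% and 11.9% in aged samples. The ratio of Cst3 RNA to that of the cysteine cathepsins thus overlapped between the groups. The summed cysteine cathepsins did not, at 11052 ± 1431 CPM per kb in young and 8387 ± 274 CPM per kb in aged samples (SD, n = 3 each). Without division by length the sums did not overlap either (25739 ± 3566 CPM in young samples and 19306 ± 1338 CPM in aged ones, SD, n = 3 each). The proteins were not measured, and the ratio depends on the transcript length taken for Ctsl.

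**Figure D2:**
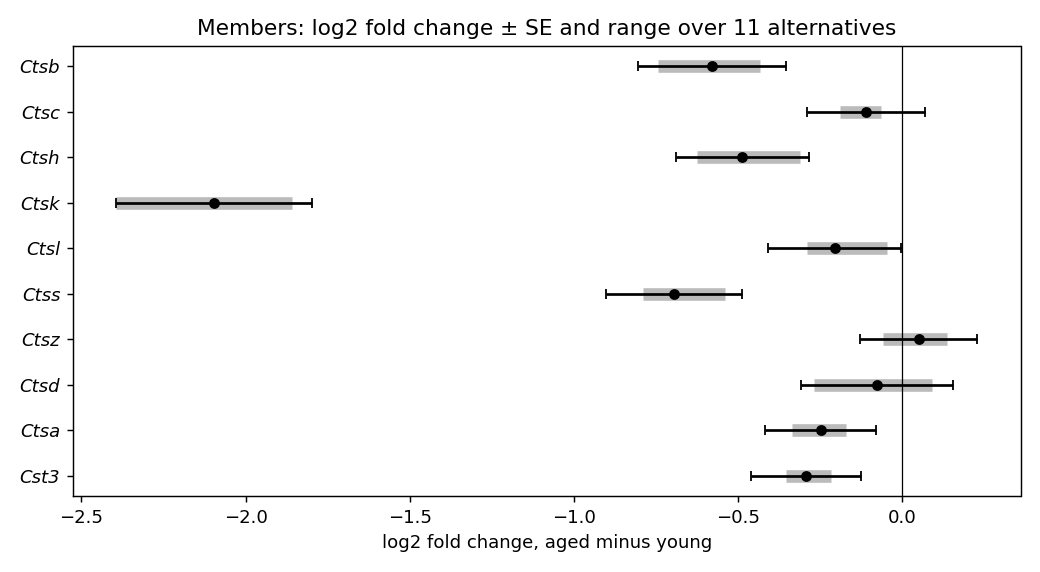
Log2 fold change of each gene, aged minus young (points, with bars of 1 standard error), over the range of 11 alternative analyses (grey). Ctsk lies farthest from 0 at -2.10, and the ranges of Ctsd and Ctsz cross 0.

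Levels of different genes were compared as CPM per kb of the shortest transcript that GENCODE marks as principal. Ctss had the highest mean, at 3537 ± 463 CPM per kb in young and 2184 ± 402 CPM per kb in aged samples (SD, n = 3 each). In young samples it was followed by Ctsl (2254 ± 411), Ctsb (2204 ± 372), Ctsd (1916 ± 370) and Ctsc (1469 ± 149). Cst3 (1239 ± 106), Ctsz (979 ± 80.7), Ctsh (531 ± 113), Ctsa (291 ± 16.5) and Ctsk (78 ± 32.2) came after them. Ctsl and Ctsb, Ctsb and Ctsd, and Ctsc and Cst3 overlapped between samples of the young group, as did 5 of 9 neighbouring pairs in the aged group. There the order after Ctss was Ctsl (1955 ± 242), Ctsd (1817 ± 443), Ctsb (1475 ± 319), Ctsc (1361 ± 86.4), Ctsz (1015 ± 136) and Cst3 (1011 ± 83.9), and the lowest were Ctsh (379 ± 49.8), Ctsa (245 ± 27.7) and Ctsk (18.2 ± 2.31). By group means, Ctss was first and Ctsk last in both groups under each of 3 length definitions, but in aged B Ctss, at 1726 CPM per kb, was in place 4, below Ctsd, Ctsl and Ctsb. The order between first and last depended on the definition, and in young samples 4 of the 10 genes kept their place with the longest principal transcript and 3 with all exons merged. Ctsc was in place 5, then 4 and 7, and Ctsz in place 7, then 6 and 4. Ctsl had place 2 in young samples at 2254 CPM per kb, place 7 at 720.2 CPM per kb of its longest principal transcript and place 6 at 685 CPM per kb of all its exons merged. All 3 length definitions, the shortest principal transcript included, were chosen after the lengths were seen. By mean over the 6 samples, Ctss ranked 27 and Ctsk 1547 among 14855 genes with a length.

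**Figure D3:**
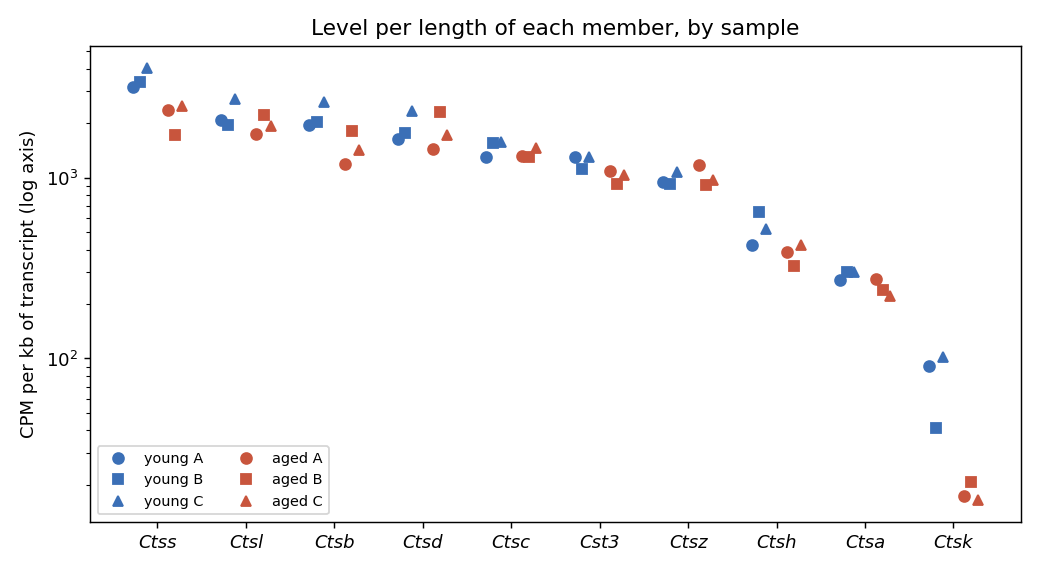
Level per length, in CPM per kb of transcript (log axis), of the 10 genes ordered by the young mean, with 1 point per sample. Ctss leads at a young mean of 3537 CPM per kb and Ctsk is last at 78 CPM per kb.

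Markers of macrophages and monocytes are set beside the cathepsins here. The 7 macrophage markers reported summed to 32028, 34801 and 46826 CPM in young A, B and C and to 25723, 21846 and 22997 CPM in aged A, B and C. Most of this sum was Lyz2, which encodes lysozyme, at 24157, 26501 and 38843 CPM in young samples and 21389, 16239.9 and 18234 CPM in aged ones, and it was not called (edgeR adjusted p = 0.0753). Csf1r averaged 712 and 771 CPM, and Csf1r and Mertk overlapped between the groups. Cd68, singled out after its values were seen, averaged 1961 and 1479 CPM, and its groups did not overlap. It was not called by edgeR (log2 fold change -0.41, edgeR adjusted p = 0.121). C1qa, C1qb and C1qc, the subunits of complement C1q, fell by the edgeR test. edgeR called these 3 of the 7 macrophage markers, and DESeq2 called 4. The calls of these 3 genes were lost without young C or aged C, and that of C1qc also without young B, with adjusted p of up to 0.061 for C1qa, 0.0582 for C1qb and 0.0814 for C1qc. The 6 monocyte markers summed to 1183, 2079 and 2851 CPM in young samples and 3894, 3153 and 2804 CPM in aged ones, and aged C lay just below young C. Chil3 was the most abundant of them, Ly6c2 averaged 212 and 194 CPM, and Vcan was called higher in 11 of 11 alternatives. DESeq2 called 3 of the 6 monocyte markers, where edgeR called Vcan alone.

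Markers of other cells of the wound were also counted. Of these cells, T, NK, B, endothelial and erythroid cells would be removed by the selection for CD11b, CD64 and F4/80, and antibodies to CD31, TIE2 and TER119, which mark endothelial and erythroid cells, are in the study's list for flow cytometry and sorting. For neutrophils, 9 of 11 markers summed to 486, 882 and 749.7 CPM in young samples and 1084, 640 and 1203 CPM in aged ones, which overlapped. S100a9 was the most abundant of these, Ly6g averaged 8.15 and 8.43 CPM, and Elane was at 0 in all young samples and in aged B. Cxcr2 and Retnlg rose by the edgeR test, and lost the call in 5 and 6 of 11 alternatives with an adjusted p of up to 0.142 and 0.153, among them with the replicate block and without young A, young C, aged A or aged C. The 5 erythroid markers, led by Hbb-bs, summed to 153, 490.1 and 423 CPM in the young samples, then 41.8, 152 and 106 CPM in the aged ones. By the edgeR test 4 of the 5 fell, beside 7.97% of all genes tested called lower and 9.73% called higher. Each of the 4 lost the call in 3 or more of 11 alternatives, among them without young B, young C or aged C. The highest edgeR adjusted p was 0.0962 for Hba-a1, 0.1004 for Hba-a2, 0.125 for Hbb-bs and 0.1301 for Hbb-bt. The 5 endothelial markers summed to 11.8 to 12.6 CPM in the young group and 25.9 to 31.1 CPM in the aged group, mostly from Pecam1, which rose and kept the call in 11 of 11 alternatives, while Cdh5 and Tek averaged under 1 CPM in each group. Kdr averaged 1.95 and 1.46 CPM and Vwf 1.61 and 1.23 CPM, neither was called, and the median log2 fold change of the 3 tested markers was -0.38. Dendritic cell markers, 6 of 7 with Ccr7 the most abundant and Flt3 at 2.52 and 3.55 CPM, summed to 62, 25 and 21.1 CPM in the young and 105, 36.4 and 46.3 CPM in the aged samples. T and NK cell markers, 8 of 9 with Cd2 the most abundant and Cd3e at 0.233 and 0.777 CPM, summed to 7.07 to 10.8 CPM over the 6 samples. Nkg7 averaged 1.37 and 0.386 CPM (edgeR adjusted p = 0.0586), Klrb1c 0.613 and 0.103 CPM and Gzma 1.03 CPM in young samples with 0 counts in every aged one, and these 3 did not overlap between the groups. They were singled out after their values were seen. B cell markers, 3 of 4, summed to 2.61 to 12.9 CPM, and Cd79a had 9 or fewer counts in every sample. Cd79b was the most abundant of them and was called lower, a call lost in 6 of 11 alternatives, with the replicate block and without any 1 sample other than young A (adjusted p of up to 0.118). Langerhans cell markers, 2 of 2 with Cd207 the most abundant, summed to 1.17 to 14.7 CPM. The part of the state and the mix of cells in the differences of the cathepsins was not tested.

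**Figure D4:**
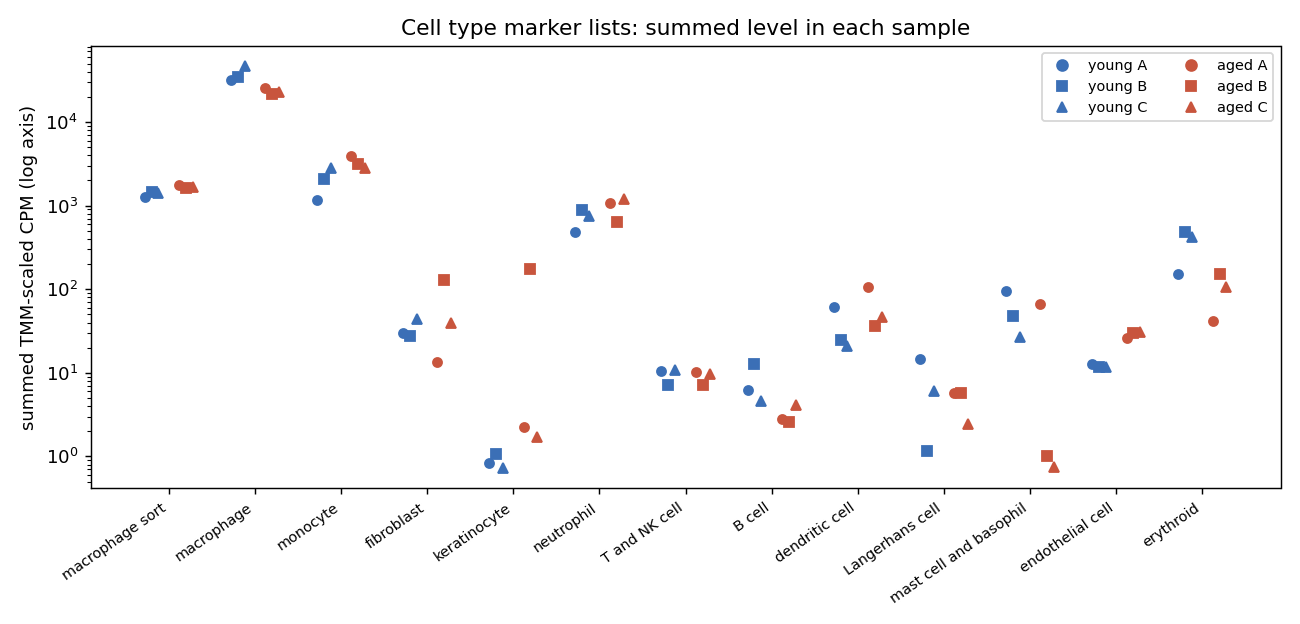
Summed TMM-scaled CPM of each cell type marker list (log axis) in the 3 young and 3 aged samples, 1 point per sample. The keratinocyte sum of 174 CPM in aged B stands above the other samples, and mast cell markers in aged B and aged C sit near 1 CPM.

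Several of the genes overlap others in the annotation, and the sources used here do not say that counting used the strand of the reads. Exons of Ctsa share 495 bases with the oppositely oriented Pltp, which was singled out for this position after its values were seen and fell from 803 to 448 CPM (edgeR adjusted p = 0.016). That call was not run under the alternatives. Exons of Ctsb share 774 bases with the opposite gene Fdft1, singled out in the same way, which was at 9.83 and 10.5 CPM. Of the 2351 exonic bases of Ctsd, 808 are shared with Gm49369 on the same strand, and 1742 of 6489 exonic bases of Ctsl are shared with the antisense gene Gm47123. Ctsl also shares 395 exonic bases with the processed pseudogene Gm49230 on the same strand, and Ctsa shares 324 with the opposite gene Neurl2, which was at 4.88 and 2.72 CPM and was not called. The 3 genes with Gm names were not analysed here, and how reads in these stretches were assigned was not tested.

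Promoter sequences are shown for the gene with the largest difference, its neighbour, and the 3 genes that hold the motif CACGTG, the core of the element bound by TFEB and related factors at lysosomal genes. They come from RefSeq on GRCm38.p6, run 5′ to 3′ on the strand of the gene, and cover 300 bases around an annotated start, with 8 of the 10 genes matched in 9 windows and Ctsb and Ctsh not matched. Both strands were searched for CACGTG, which reads the same on each, and for GTCACGTG, which contains it. Of all 32851 promoters in the table, 2349 (7.15%) held CACGTG and 738 (2.25%) held GTCACGTG. Capitals mark the matches, and no cause is drawn from their presence or absence. The windows are chr3:95498960-95499259 for Ctsk, chr3:95526536-95526835 for Ctss, chr7:142387778-142388077 for Ctsd, chr13:64370471-64370770 for Ctsl and chr2:164833523-164833822 for the second of 2 starts of Ctsa.
Ctsk: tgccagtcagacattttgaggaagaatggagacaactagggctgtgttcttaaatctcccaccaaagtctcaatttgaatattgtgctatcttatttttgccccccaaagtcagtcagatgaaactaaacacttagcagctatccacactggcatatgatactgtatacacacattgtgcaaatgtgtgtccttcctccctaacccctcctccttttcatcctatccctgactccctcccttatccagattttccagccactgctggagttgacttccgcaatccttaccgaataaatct
Ctss: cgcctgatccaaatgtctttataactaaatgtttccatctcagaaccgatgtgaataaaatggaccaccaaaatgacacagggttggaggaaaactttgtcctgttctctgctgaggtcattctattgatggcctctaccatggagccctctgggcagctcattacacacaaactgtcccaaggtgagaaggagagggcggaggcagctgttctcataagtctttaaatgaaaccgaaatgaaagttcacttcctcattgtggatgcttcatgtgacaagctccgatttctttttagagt
Ctsd: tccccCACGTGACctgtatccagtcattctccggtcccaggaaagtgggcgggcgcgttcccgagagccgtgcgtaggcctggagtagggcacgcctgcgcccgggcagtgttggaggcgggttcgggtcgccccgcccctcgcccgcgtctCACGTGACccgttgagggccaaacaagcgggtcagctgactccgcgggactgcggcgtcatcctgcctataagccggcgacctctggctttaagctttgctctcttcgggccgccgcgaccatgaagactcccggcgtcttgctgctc
Ctsl: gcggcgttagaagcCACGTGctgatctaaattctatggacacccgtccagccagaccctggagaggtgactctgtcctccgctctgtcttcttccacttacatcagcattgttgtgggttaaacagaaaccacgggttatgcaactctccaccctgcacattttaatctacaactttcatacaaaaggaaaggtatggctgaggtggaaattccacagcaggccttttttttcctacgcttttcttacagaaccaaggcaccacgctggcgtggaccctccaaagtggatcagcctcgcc
Ctsa: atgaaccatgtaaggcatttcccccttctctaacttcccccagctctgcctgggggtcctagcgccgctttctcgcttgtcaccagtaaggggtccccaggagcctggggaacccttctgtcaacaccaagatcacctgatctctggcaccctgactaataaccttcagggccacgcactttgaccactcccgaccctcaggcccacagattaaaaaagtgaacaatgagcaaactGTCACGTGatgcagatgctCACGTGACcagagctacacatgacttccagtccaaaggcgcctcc

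Ctsk and Ctss held neither motif in these windows, which had a GC content of 43.7% and 44% beside a median of 52.7% over all promoters. Ctsd held GTCACGTG on the opposite strand at 2 places, starting 245 and 98 bases before the annotated start. In the second window of Ctsa a match starts 14 bases before the start and another, on the opposite strand, at base 6 after it. Ctsl held only CACGTG, 236 bases before the start. These starts are those of RefSeq and can differ from the ends of the gene spans given above. The windows of Ctsl and of the second start of Ctsa lie inside those spans, as does the nearer match of Ctsd. The first window of Ctsa and those of Ctsc, Ctsz and Cst3 held neither.

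The factors of the MiT/TFE family that bind such elements, and their control, are a list of 12 genes, each tested singly, of which 3 rose and 0 fell by the edgeR test, beside 9.73% of all genes tested called higher and 7.97% called lower. Without young C, 0 of the 3 kept the call. Tfec rose from 15.9 to 31.1 CPM (log2 fold change 0.97 ± 0.19 SE, edgeR adjusted p = 0.0111) and lost the call in 1 of 11 alternatives, without young C (adjusted p = 0.0688). Fnip1, a partner of folliculin, rose from 14.7 to 28.1 CPM (log2 fold change 0.94 ± 0.22 SE, edgeR adjusted p = 0.0206) and lost the call without young B, young C or aged C, with an adjusted p of up to 0.0838. Tfe3 rose from 60.2 to 96.7 CPM (log2 fold change 0.68 ± 0.20 SE, edgeR adjusted p = 0.0396) and lost the call when any 1 sample other than young A was left out, with an adjusted p of up to 0.158. Tfeb, singled out after its values were seen, averaged 14.8 and 14.7 CPM and was not called, and Lamtor1, the most abundant of the list per length, averaged 179 and 131 CPM. The 10 cathepsin and cystatin genes had a median log2 fold change of -0.27 and these 12 genes one of 0.44, and no test compared the lists.

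Over the 9 lists of genes around the cathepsins, 82 of 119 listed genes were tested and 13 were called at an adjusted p under 0.05 over all genes tested, 7 higher and 6 lower. This is 15.9% of the 82 in both directions together. Of all 11878 genes tested, 2103 were called in either direction, 9.73% higher and 7.97% lower. The share in the lists thus does not exceed that of all genes tested. Without young B, young C or aged C the number called was 3, and it was 9 without aged A, 12 without aged B and 14 without young A.

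**Figure D5:**
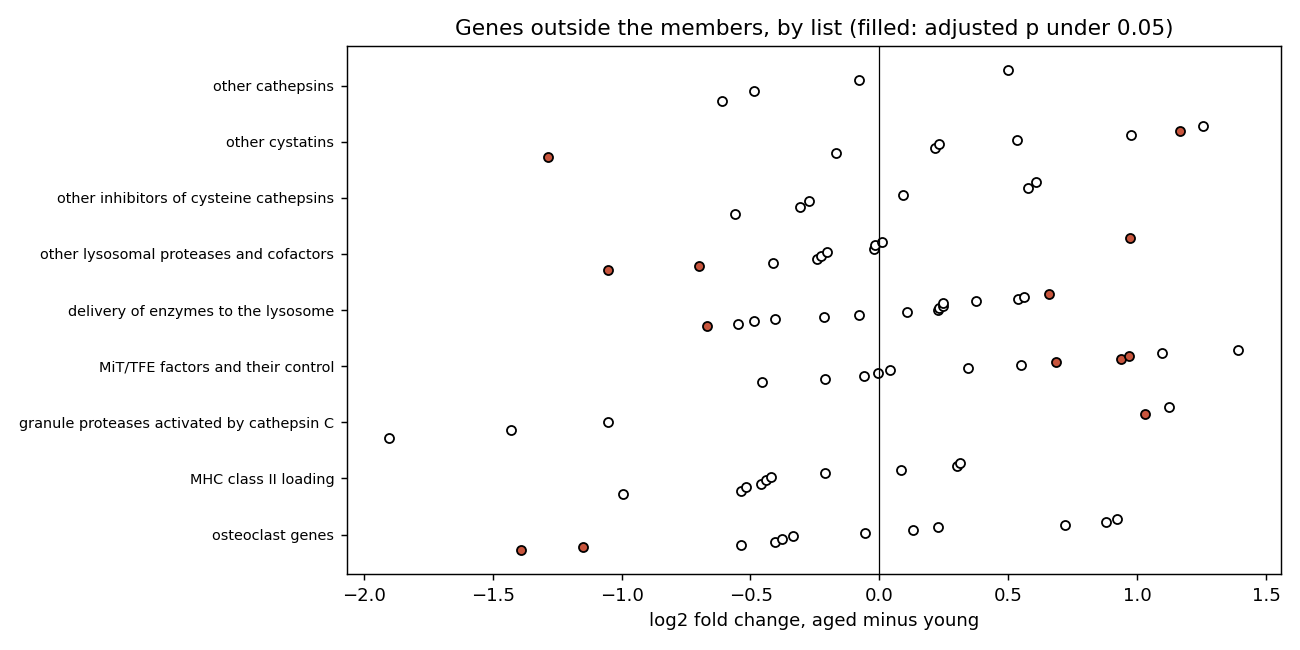
Log2 fold change, aged minus young, of the 82 tested genes of the 9 lists, with 1 point per gene and filled points for the 13 with an adjusted p under 0.05. Filled points lie on both sides of 0, and the list of MiT/TFE factors has 3 filled points above 0, of which 0 kept the call without young C.

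Of the other lysosomal proteases and cofactors, 10 of 10 were tested. Dpp7, a dipeptidyl peptidase, fell from 41.9 to 20.1 CPM (log2 fold change -1.05 ± 0.28 SE, edgeR adjusted p = 0.0292) and lost the call without young B, young C, aged A or aged C, with an adjusted p of up to 0.123. Ifi30, the thiol reductase that opens disulfide bonds for proteolysis, fell from 568 to 349.7 CPM (log2 fold change -0.70 ± 0.16 SE, edgeR adjusted p = 0.0208) and lost it without young B, young C, aged B or aged C, with an adjusted p of up to 0.0932. Napsa, an aspartic protease related to Ctsd, rose from 169 to 331 CPM (log2 fold change 0.97 ± 0.26 SE, edgeR adjusted p = 0.0308) and lost the call in 6 of 11 alternatives, namely with the replicate block and without any 1 sample other than aged B, with an adjusted p of up to 0.107. Psap, the saposin precursor and the most abundant, averaged 3603 and 3129 CPM. Among 15 genes that deliver enzymes to the lysosome, Ap1g1 rose (log2 fold change 0.66 ± 0.18 SE, edgeR adjusted p = 0.0344) and Gga2 fell (log2 fold change -0.67 ± 0.20 SE, edgeR adjusted p = 0.043). The Ap1g1 call was lost without young B, young C, aged A or aged C, and the Gga2 call with no filter, with the replicate block and without any 1 sample other than aged B, with an adjusted p of up to 0.132 and 0.135. M6pr, the small mannose 6-phosphate receptor and the most abundant, averaged 504 and 434 CPM.

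Of 13 other cathepsins 4 were tested, and edgeR called 0, with 0 at an unadjusted p under 0.05 and 0 called by DESeq2. Ctso averaged 53.4 and 38.1 CPM, Ctsf 2.94 and 1.92 CPM, Ctse 1.99 and 2.82 CPM and Ctsw 0.584 and 0.556 CPM in young and aged samples. Ctsf had 54, 58 and 37 counts in young and 9, 63 and 18 counts in aged samples, so that aged B was the highest of all 6.

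Of 25 other cystatins 10 were in the table and 8 were tested. Cstb, the intracellular cystatin B, averaged 517 and 459.9 CPM and was the most abundant. Cst7, encoding cystatin F, which inhibits cathepsins inside immune cells, had 73, 80 and 50 counts in young and 32, 26 and 17 counts in aged samples. It fell (log2 fold change -1.29 ± 0.36 SE, edgeR adjusted p = 0.0371) and lost the call in 5 of 11 alternatives, each leaving out 1 sample (any young sample, aged B or aged C), with an adjusted p of up to 0.129. Cstdc4 had 70, 81 and 99 counts in young and 186, 112 and 223 counts in aged samples. It rose (log2 fold change 1.16 ± 0.31 SE, edgeR adjusted p = 0.0306) and lost the call without any 1 sample other than aged B, with an adjusted p of up to 0.112. Csta2, Stfa1, Stfa2, Stfa2l1 and Cstdc5 were tested and not called, and Stfa3, with 3 to 10 counts, was not tested. The stefin A genes, Cstdc4 among them, are near copies of each other, so reads may have been split between them and their separate values are uncertain.

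Of 11 other inhibitors of cysteine cathepsins 6 were tested, and edgeR called 0, with 0 at an unadjusted p under 0.05 and 0 called by DESeq2. Serpinb6a, the most abundant, averaged 70.6 and 47.9 CPM.

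The genes outside the 10 whose log2 CPM followed Ctsk most closely over the 6 samples, among 6578 tested genes with a mean of at least 10 CPM, were Snrpa1 (Pearson r = 0.998), Thyn1 (0.994) and Tsn (0.991). Snrpa1 was at 70.4, 52 and 76.4 CPM in young samples and 36.2, 40 and 34.2 CPM in aged ones, in the same order of samples as Ctsk, with B the lowest young sample and the highest aged one. For Ctsz the closest were Ostf1 (0.966), Rsph3a (0.954) and Eapp (0.951). With 6 samples and so many genes compared, such values describe these libraries, and they include the difference between the age groups.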

How the data were processed

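RNA from sorted Day 3 wound macrophages of 3 young and 3 aged samples was sequenced in bulk. Libraries were made by a service provider, with the SMART-Seq v4 kit per the labels. The authors aligned reads with STAR 2.7.3a to mm10 and quantified Ensembl transcripts in Partek Flow. The authors deposited expected counts per gene, which are estimates and not normalised, for genes with a total of at least 10. A second deposited table with the authors' DESeq2 comparison was not used here. Expected counts were rounded to whole numbers, although the test had been set out for whole counts. edgeR 4.0.16 in R 4.3.3 was used with filterByExpr, which kept 11878 of 15168 genes, TMM scaling and a quasi-likelihood F test between the age groups, without a block. P-values were adjusted by the Benjamini-Hochberg method over all genes tested, and genes were called at an adjusted p under 0.05. Standard errors of log2 fold changes were derived from the quasi-likelihood F statistic. The fit was tested on simulated data. DESeq2 1.42.0, its size factors, other filters on low counts, a threshold on size, a replicate block and leaving out each sample were tried as alternatives.

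Members of the family and the gene lists were chosen with earlier results of these data known. Named genes were all 10 members, every other cathepsin or cystatin with at least 1 count in every sample, and of each other list the called genes (at most 6) and the most abundant gene. They also included the 4 sort markers, the first and the most abundant gene of each marker list, and the 3 genes most correlated with the members at each end of the log2 fold changes. Log2 CPM used a prior count of 2. Transcript lengths and overlaps came from GENCODE M21 on GRCm38, the build that mm10 names, and 14855 genes had a length by symbol. No comparison of protein sequences was made. Replicates of a group differed by more than sampling noise in all pairs. Of the marker lists, 2 genes are not reported here and were left out of the sums.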

Additional observations from a re-analysis of the deposited data

How the results depend on the processing

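The median log2 fold change of the 10 genes lay between -0.34 and -0.24 over the 11 alternatives, with the lowest and the highest value both from leaving out 1 sample. Ctsa, Ctsb, Ctsc, Ctsh, Ctsk, Ctsl, Ctss and Cst3 stayed below 0 in 11 of 11 alternatives, Ctsd in 9, and Ctsz was below 0 in 1. Ctsk ranged from -2.39 without young B to -1.86 without young C, and Ctss from -0.79 without aged C to -0.54 without aged B.

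The number of genes called, 2103 with all samples, was 1044 when an absolute log2 fold change over 1 was also required, and 218 to 2702 when 1 sample was left out (765 without young B, 218 without young C, 1385 without aged A, 545 without aged C). Each such count rests on fewer samples, and beyond that the cause was not tested. Of the 13 partner genes called, those of the 9 lists around the cathepsins, 6 passed with the threshold on size. When 1 sample was left out, 3 to 14 partner genes were called, of which 1 to 9 were among the 13. Acp5 was called in 11 of 11 alternatives and the other 12 lost the call in at least 1, with 0 reversed. DESeq2 called 2565 genes, and 13 of the partner genes, all 13 shared.

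The sources used here do not say what the set letters stand for, and a pairing by letter was not shown for all letters. The erythroid sums ran in the same order of letters in both groups. With the letter as a block, edgeR adjusted p of the called erythroid genes was 0.0033 to 0.00536. Same-lettered samples had correlations of their deviations from the group means of 0.181 for A, -0.0206 for B and 0.114 for C, and young C correlated better with aged B (0.139). With the letter as a replicate block 2114 genes were called and 13 partner genes, 10 of them shared, and the median over the 10 genes was -0.27. With 3 samples a group, calls of single partner genes are limited by this dependence on 1 sample. Levels per length depend on the transcript chosen, and genes with few counts, such as Ctsw and Stfa3, are limited by depth.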
